A study of Mus musculus with 39 samples.

Results

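Mapt crRNA 6 was compared with a non-targeting (NT) crRNA in N2a cells, a mouse neuroblastoma line. The comparison held 6 of the 39 RNA-seq libraries of the series, 3 with Mapt crRNA 6 and 3 with NT, picked by their library names from the table of wild-type (WT) N2a cells. In both groups, cells of WT genotype received plasmids for the RNA-guided ribonuclease RfxCas13d and for the crRNA, total RNA was taken 48 h after transfection, and a poly(A)-based mRNA kit was used, so RfxCas13d was present in the controls too. Expression was transient, and a sort of transfected cells is described by the study for RT-qPCR but not for these libraries, so a change in all cells and a larger change in some of them could not be told apart. The study asked, among other questions, what RfxCas13d with a targeting crRNA does to transcripts other than its target. From N2a transcriptomes at 48 h it reported knockdown of Mapt and no change in most other genes. The NT libraries were replicates 1, 2 and 6 of the labels, whose names share the WT set with 7 targeting crRNAs. Besides Mapt crRNA 6 these were Mapt crRNA 4 and the 5 crRNAs Sik3 crRNA 1 and 8, Map2 crRNA 1 and 3, and Rbfox3 crRNA 3, with 3 libraries each. In each group 2 libraries carry the series name LDK and the other LDL. Whether the libraries of a group came from separate cultures is not stated in the labels, and p-values therefore cover only the variation among these libraries, which may be technical.

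Mapt encodes tau, a microtubule-associated protein of neurons that binds along axonal microtubules and is regulated by phosphorylation. Cas13 enzymes are guided to an RNA by the spacer of a crRNA, which pairs with the target, and the pairing switches on a ribonuclease site formed by their HEPN domains. In bacteria and in vitro, the active enzyme can also cut RNAs that do not pair with the spacer, which is known as collateral cleavage.

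The spacers of both Mapt crRNAs and the NT spacer are shown because the Mapt crRNAs overlap by most of their bases and differ in their effect on Mapt. Capitals mark the 17 bases that crRNA 6 and crRNA 4 share, and sequences run 5′ to 3′ in DNA letters as the study lists them, with the target sites read from GRCm38 transcripts.
Mapt crRNA 6 spacer: ATAAAAGAAAAGGCAGAggtcc
Mapt crRNA 4 spacer: cttagATAAAAGAAAAGGCAGA
Mapt target of crRNA 6: ggaccTCTGCCTTTTCTTTTAT
Mapt target of crRNA 4: TCTGCCTTTTCTTTTATctaag
NT spacer: tcaccagaagcgtaccatactc
The site of crRNA 6 is at chr11:104329649-104329670 on the plus strand of GRCm38 and that of crRNA 4 at chr11:104329654-104329675. Both lie in the 3′ UTR of Mapt-204, 1 of 12 annotated Mapt transcripts, 8 of which are coding, and in no other annotated transcript of any gene. In this transcript of 5253 nt the site of crRNA 6 begins at position 2812, 1465 genomic bases after the last coding base, while the FPKM of Mapt summed the whole gene (chr11:104231390-104332090). The NT spacer matched no annotated transcript. The GC content was 40.9% for the crRNA 6 spacer, 31.8% for crRNA 4 and 50% for NT.

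Libraries were of similar depth and agreed within groups. FPKM (fragments per kilobase of gene model, scaled to the total of counted fragments of the library) corresponded to an estimated 13134476 to 15344864 fragments with crRNA 6 and 12342037 to 15079412 with NT. Pearson's r of log2(FPKM + 0.5) across genes was 0.990 to 0.991 between crRNA 6 libraries, 0.989 to 0.990 between NT libraries and 0.979 to 0.981 between the groups. Of 13 markers of neuroblastoma identity, 11 reached 1 FPKM, with sums of 1013 to 1058 FPKM with crRNA 6 and 940.7 to 988.4 with NT, and 1 was listed at 0 in all 6 libraries. Of 21 markers of other cell types, 4 reached 1 FPKM and 6 were listed at 0 in all 6 libraries, among them Aqp4 and P2ry12, and their sums were 11.4 to 12.6 FPKM with crRNA 6 against 11.6 to 13.8 with NT.

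Mapt was reduced with crRNA 6. It was at 5.90, 6.61 and 5.62 FPKM with crRNA 6, against 24.97, 25.55 and 26.64 FPKM with NT. All 3 crRNA 6 libraries were far below the NT libraries, and the mean of 6.04 ± 0.510 FPKM was 23.5% of the NT mean of 25.7 ± 0.849 FPKM (SD, n = 3 each). The log2 fold change was −2.01 ± 0.0586 (SE; adjusted p = 1.93e-17 in limma, fitted to log2(FPKM + 0.5) across 11553 genes and 30 WT libraries with the library series as a covariate, with Benjamini-Hochberg adjustment). With only the 6 libraries compared in the fit, the fold change was the same and the adjusted p was 3.32e-05 in limma. An exact 2-sided permutation test of the same FPKM values gave p = 0.1, the smallest that 3 against 3 libraries allow. Mapt remained with crRNA 6 in every library, and whether the remaining fragments came from transcripts without the site was not tested.

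The crRNA that shares 17 of 22 bases left more of the target. Mapt was at 13.1, 13.4 and 12.6 FPKM with crRNA 4 (50.7% of NT), so no crRNA 6 library reached the crRNA 4 libraries, and the difference between crRNA 6 and crRNA 4 was −1.05 ± 0.0586 on the log2 scale (adjusted p = 4e-11 in limma). Against the mean of the 6 other crRNAs of the WT set, Mapt was lower by a log2 difference of −2.11 ± 0.0447 (adjusted p = 1.22e-20). The crRNAs against other genes had Mapt at means of 27.7 to 40.6 FPKM, 107.9% to 157.7% of NT, with Map2 crRNA 1 highest.

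**Figure D1:**
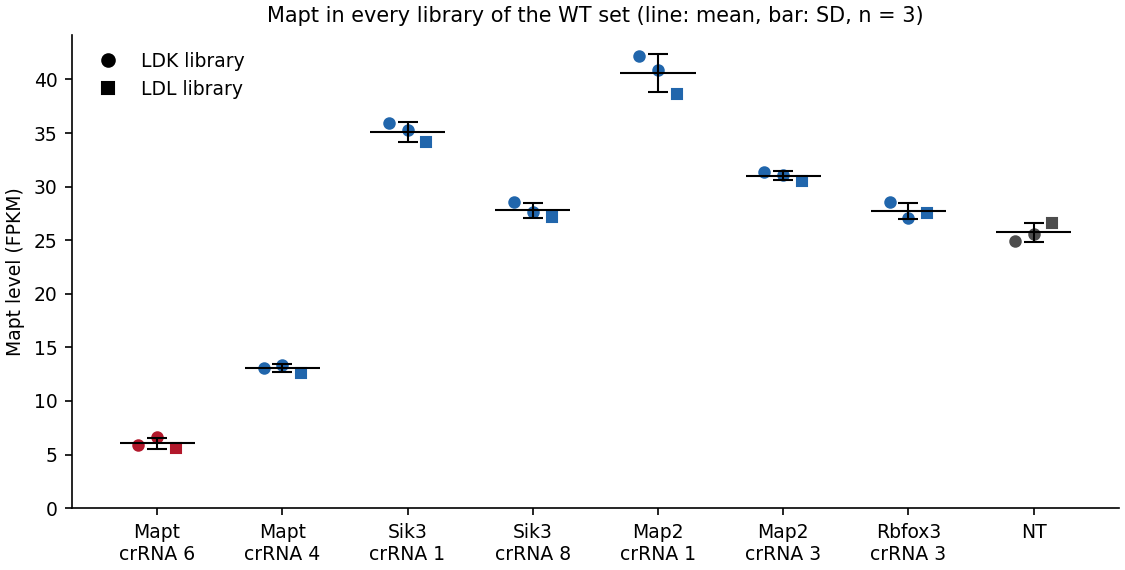
Mapt FPKM in each library of the WT set by crRNA, with points for libraries (circles LDK, squares LDL), a line for the group mean and bars for the SD over 3 libraries. The crRNA 6 libraries lie between 5.62 and 6.61 FPKM, below those of crRNA 4 and of NT, and the crRNAs against other genes lie at or above NT.

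Of the genes next to Mapt, 1 fell, by far less. The nearest tested genes before it, Nsf, Arf2 and Crhr1, had log2 fold changes of 0.08, −0.21 and 0.38, and those after it, Kansl1, Cdc27 and Itgb3, had 0.07, 0.05 and 0.71. Arf2, a small GTPase of vesicle transport, fell (adjusted p = 0.000753 in limma, and 0.244 with all 6 NT libraries of WT cells, 3 of them from the N set) Itgb3, an integrin subunit, rose (adjusted p = 3.78e-08), and the other 4 did not pass. Itgb3 was at 10.3, 9.54 and 8.96 FPKM with crRNA 6 and at 5.38, 6.01 and 5.59 FPKM with NT, and its difference from the 6 other crRNAs was −0.06 (adjusted p = 0.45).

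Across the transcriptome many genes moved a little and few moved far. Of 11553 tested genes, 99 (0.857%) changed, meaning an adjusted p under 0.05 and a fold of at least 2, with 60 higher (0.519%) and 39 lower (0.338%). With only genes of a mean FPKM of at least 5 tested, 28 changed. At any fold 4250 genes (36.8%) passed, 2563 higher (22.2%) and 1687 lower (14.6%), with a median absolute log2 fold change of 0.30 among them. The median over all tested genes was 0.05, and the 5th and 95th percentiles were −0.37 and 0.49. Of the passing genes 60.3% were higher and 39.7% lower with FPKM as deposited, whereas 46.2% were higher and 53.8% lower after each library was rescaled by its median ratio to all libraries, so the balance of small changes depended on the scaling. After rescaling 1922 of 11553 genes were higher and 2240 lower, which is the background for list counts under rescaling below. All 3 crRNA 6 libraries were on the same side of all 3 NT libraries for 96 of the 99 changed genes, against 48.4% of all tested genes, and all 99 had the same sign among LDK libraries alone and in the LDL pair alone. Since the 99 were chosen in these same libraries, this describes them and is no independent check.

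Large rises were mostly outside the class of other named genes, and large falls mostly within it. Of the 60 that rose at least 2-fold, 21 were replication-dependent histone genes (of 44 tested), 18 predicted or unnamed genes (of 510), 6 snoRNA genes (of 96), 4 microRNA genes (of 115) and 11 other named genes (of 10778). Of the 39 that fell, 29 were other named genes, 5 predicted genes, 2 snoRNA genes, 2 microRNA genes and 1 another small RNA gene. No replication-dependent histone gene fell at any fold in limma, also at an unadjusted p under 0.05.

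Among named protein-coding genes outside the histones, the largest rise was that of Tmem158, a membrane protein induced by Ras signalling. It was at 6.73, 6.41 and 6.51 FPKM with crRNA 6, against 2.20, 1.42 and 2.10 FPKM with NT (log2 fold change 1.57, adjusted p = 9.61e-09 in limma). Rgs4, a regulator of G-protein signalling, was at 3.59, 4.01 and 4.36 FPKM with crRNA 6 and at 1.85, 0.947 and 1.52 FPKM with NT (1.24, adjusted p = 1.28e-07). Gdap1, a protein of the mitochondrial outer membrane, was at 19.3, 19.2 and 18.8 FPKM with crRNA 6 and at 9.32, 8.98 and 8.93 FPKM with NT (1.03, adjusted p = 6.74e-11). The groups did not overlap in any of these genes, but the NT libraries of Rgs4 spread almost 2-fold, and with all 6 NT libraries Rgs4 did not pass (0.38, adjusted p = 0.392). Tmem242, a mitochondrial membrane protein, rose by 1.26, F8a, a partner of huntingtin, by 1.16, and Eid2, an inhibitor of differentiation factors, by 1.12. Snhg10, a non-coding snoRNA host transcript, rose by 1.36 and H2bu2, an H2B gene outside the replication-dependent list, by 1.26.

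Besides Mapt, the named protein-coding genes with the largest falls were of low level. The predicted gene Gm11517, named after its values were seen, was at 2.67, 2.56 and 3.67 FPKM with crRNA 6 and at 15.5, 13.8 and 20.5 FPKM with NT (−2.30). Rhox6, a homeobox gene of reproductive tissues, was at 0, 0.088 and 0.322 FPKM with crRNA 6, against 3.18, 2.45 and 4.31 FPKM with NT (log2 fold change −2.59, adjusted p = 3.42e-07 in limma). Il17f, a cytokine gene, was at 0.885, 0.517 and 1.12 FPKM with crRNA 6 and at 5.33, 3.94 and 5.64 FPKM with NT (−2.04, adjusted p = 9.28e-07). Both genes were low in every crRNA 6 library and above 2 FPKM in every NT library. Il17c, another cytokine of the same family, fell by 1.72, and Lgals3, the lectin galectin-3, by 1.84. Rhox6, Il17f, Il17c and Lgals3 were also low with the 6 other crRNAs of the set, whose group means reached at most 0.515, 1.01, 0.872 and 0.967 FPKM, and none of the 4 differed from the mean of those crRNAs past the threshold (adjusted p = 0.32 to 0.74).

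Interferon-stimulated genes that passed the test were nearly all lower with crRNA 6. Of 38 tested members of 53 listed, 14 fell (36.8%, against 14.6% of all genes), 23 did not pass and 1, Trim25, rose by 0.19, with a median of −0.15 against 0.05 over all genes, and under rescaling the counts were 14 and 0. Oasl1, an oligoadenylate synthetase-like protein, was at 5.09, 5.05 and 4.59 FPKM with crRNA 6 and at 17.3, 15.7 and 16.6 FPKM with NT (−1.66, adjusted p = 2.23e-10 in limma). Rsad2, which encodes the antiviral enzyme viperin, was at 2.31, 2.39 and 2.58 FPKM with crRNA 6 and at 7.55, 7.95 and 7.24 FPKM with NT (−1.47, adjusted p = 3.55e-09). Both stood below NT in each library, as did Gbp3, a guanylate-binding GTPase (−1.37), and Ifit1, a binder of foreign RNA ends (−1.22). Against the 6 other crRNAs the direction was the opposite: 7 members were higher and 2 lower (background 10.1% and 5.83%), with Oasl1 higher by 0.36 (adjusted p = 0.0077) and Rsad2 by 0.39 (adjusted p = 0.006). Among 25 tested interleukin, chemokine and receptor genes of 145 listed, 7 fell (28%) and 3 rose (12%, against 22.2% of all genes), and the falls included Ccl5, a chemokine (−1.35, but −0.63 with adjusted p = 0.214 with all 6 NT libraries), and Il20rb, a receptor subunit (−0.94). Of 17 NF-kB targets 3 fell (17.6%, near the share of all genes), Rela (−0.33), Nfkbib (−0.30, and −0.12 with adjusted p = 0.325 with all 6 NT libraries) and Nfkbiz (−0.26), and 2 rose, the chemokine Cxcl1 (0.32) and the caspase inhibitor Birc2 (0.14).

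Replication-dependent histone genes, whose mature mRNAs end in a stem-loop and mostly lack a poly(A) tail, were higher with crRNA 6. Of 44 tested members of 65 listed, 34 rose and 0 fell, against 22.2% of all genes that rose, with a median log2 fold change of 1.01. Their summed level was 447, 451 and 398 FPKM with crRNA 6, against 184, 170 and 158 FPKM with NT, which is 253% of NT, and no crRNA 6 library overlapped NT. The counts were 32 and 0 under rescaling and 27 and 0 among LDK libraries alone. Fragments of near-identical copies could have been shared among these genes, so single values are less certain than the sum.

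Families were formed from the newer gene symbols, and 5 genes with older symbols were kept apart. Family medians ran from 0.59 in H1 to 1.83 in H4 genes, with overlapping ranges, and no difference between families was tested. All 10 tested H4 genes with newer symbols rose, 9 of them at least 2-fold, with a median of 1.83. H3 genes rose in 5 of 7 (median 1.29), H2B genes in 8 of 10 (0.90), H2A genes in 3 of 7 (0.98) and H1 genes in 4 of 5 (0.59). The 5 genes listed under older symbols belong to the H2A, H2B and H4 families, and 4 of them rose. These were the H4 genes Hist1h4m (1.32) and Hist1h4n (0.79), the H2A gene Hist1h2al (1.17) and the H2B gene Hist1h2bp (1.07). The H2A gene Hist1h2an (0.61) did not pass. H4c14 was at 50.9, 52.9 and 51.2 FPKM with crRNA 6 and at 9.74, 7.08 and 6.75 FPKM with NT (log2 fold change 2.66, adjusted p = 4.01e-12 in limma). H4c9 was at 45.9, 45.9 and 42.5 FPKM with crRNA 6 and at 10.9, 7.41 and 12.5 FPKM with NT (2.11, adjusted p = 8.07e-10), and H3c11 at 20.4, 23.5 and 16.9 FPKM with crRNA 6 and at 4.24, 4.26 and 4.19 FPKM with NT (2.12, adjusted p = 1.86e-07). In all of these genes the lowest crRNA 6 library was well above the highest NT library.

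The other crRNAs had histone levels on both sides of those with crRNA 6, as in H4c14. Its group means ran between 13.8 and 79.9 FPKM over the 6 other crRNAs, with crRNA 4 lowest, and the crRNA 6 mean was 51.7 FPKM. Against the mean of these 6, 12 of 44 histone genes were higher and 0 lower (median 0.44), and against crRNA 4 alone 16 were higher and 0 lower (median 0.68), where 4.48% of all genes were higher. At an unadjusted p under 0.05 the counts were 23 and 0 against the 6 and 33 and 0 against crRNA 4. At that cutoff, of 9771 protein-coding genes with 4 or more exons, 1645 were higher and 1243 lower than the 6. Against crRNA 4 those counts were 1090 and 1044. H4c14 was higher than with crRNA 4 by 1.90 (adjusted p = 7.9e-09 in limma), H4c2 by 1.58 (adjusted p = 0.0062) and H4c9 by 0.94 (adjusted p = 0.00089). Genes of G1/S and DNA replication leaned lower than NT. Of 46 tested, 3 rose (E2f1, Tk1 and Rfc1), which is 6.52% against 22.2% of all genes. Another 19 fell (41.3%, against 14.6%), among them the helicase subunit Mcm7 (−0.35) and Orc6 of the origin recognition complex (−0.33). Against the 6 other crRNAs, however, 11 of these 46 were higher and 1 lower (background 10.1% and 5.83%). Against crRNA 4 the counts were 4 and 1 (background 4.48% and 2.98%), and any link to the histone levels was not tested. Of 19 tested members of the histone mRNA processing list, 5 rose (26.3%, near the 22.2% of all genes), led by Lsm10 of the U7 snRNP (0.44). The 2 that fell were Srrt (−0.50) and Chaf1b (−0.28), a histone chaperone subunit and no mRNA processing factor. Among 13 tested replication-independent histones, 5 rose, including H2bu2, H2ax (0.62) and the linker histone H1f0 (0.47), and H3f3b fell by 0.21.

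**Figure D2:**
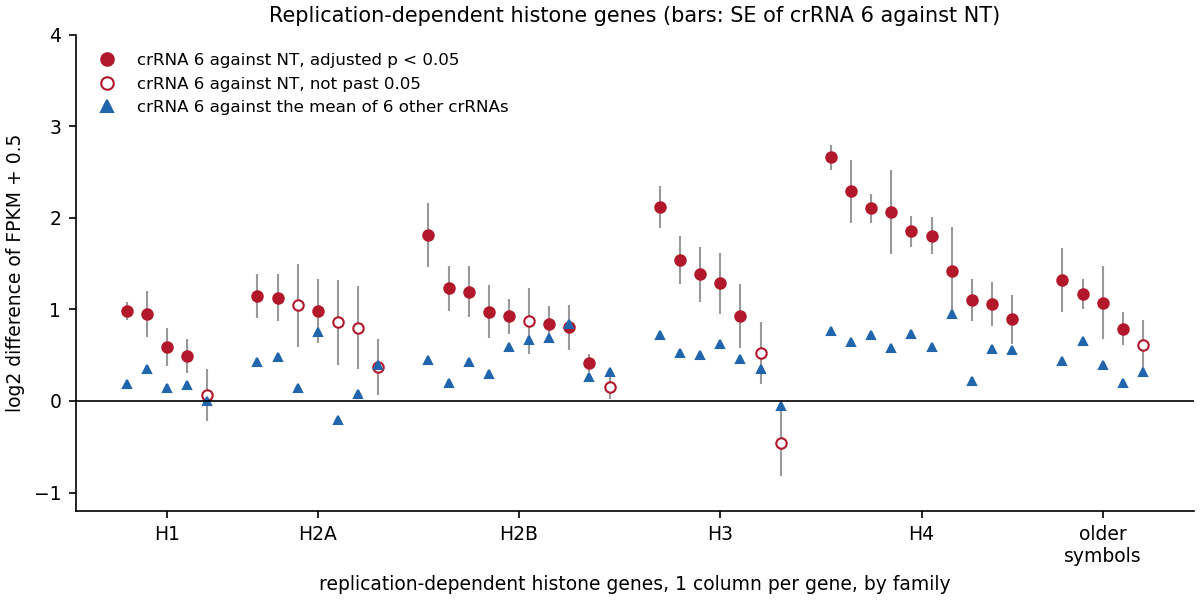
Log2 differences of FPKM + 0.5 for each tested replication-dependent histone gene by family, with circles for crRNA 6 against NT (filled where adjusted p is under 0.05, bars are SE) and triangles for crRNA 6 against the mean of 6 other crRNAs. The H4 genes with newer symbols sit highest, between 0.89 and 2.66, and 1 H3 gene lies below 0 without passing the test. Genes with older symbols are drawn apart, among them the H4 genes Hist1h4n (0.79) and Hist1h4m (1.32).

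Small RNA genes moved in both directions, some of them on many fragments and others on few. Snord104, a box C/D snoRNA gene, was at 254, 246 and 336 FPKM with crRNA 6 and at 51.2, 80.9 and 56.6 FPKM with NT, which corresponds to 284, 236 and 352 against 53, 89 and 51 fragments (log2 fold change 2.15, adjusted p = 1.19e-10 in limma). Snora78, a box H/ACA snoRNA gene, had 48, 62 and 77 fragments with crRNA 6 and 14, 7 and 9 with NT (2.495, adjusted p = 1.33e-07). Snord104 and Snora78 were higher than in NT in each crRNA 6 library. Smaller shares of these genes passed than of all genes, of which 22.2% rose. Of 60 box C/D genes 6 rose (10%) and 2 fell (median 0.28), and of 36 box H/ACA genes 3 rose (8.33%) and 0 fell (8 and 0 at an unadjusted p under 0.05, median 0.25). Other calls rested on a handful of fragments: Mir6960 had 1, 4 and 3 with crRNA 6 and 0 in each NT library, Snord87 2, 3 and 2 against 0, and Mir7647 2, 2 and 1 against 0, so no fold is given for them. The falls also rested on few fragments, and each lost its call without NT replicate 6. Snord66 had 0, 1 and 0 fragments with crRNA 6 and 4, 2 and 3 with NT, Snord70 had 15, 9 and 8 against 22, 26 and 20, and Mir7036b had 11, 2 and 5 against 11, 17 and 11. In poly(A) libraries such fragments can stem from host transcripts, and this could not be told apart here. Of 19 tested snoRNA host genes, 6 rose and 5 fell (4 and 6 under rescaling), with Snhg10 and Gas5 (0.40) among the rises and Snhg15 (−0.91) among the falls.

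Genes of the tau and microtubule system mostly moved by less than 2-fold. Of 50 tested microtubule-associated proteins of 54 listed, 20 rose (40%, against 22.2% of all genes) and 8 fell (16%, against 14.6%), with 17 and 9 under rescaling and a median of 0.13. Apart from Mapt the largest changes were a rise of Map1a, a microtubule-associated protein of neurons (0.58), and a fall of Stmn4, a stathmin that binds free tubulin (−0.56). Stmn4 was at 86.5, 91.0 and 90.5 FPKM with crRNA 6 and at 130, 128 and 137 FPKM with NT, with no overlap. Map2, the dendritic relative of tau, was 0.19 higher with crRNA 6 (adjusted p = 0.0399 in limma, but 0.103 under rescaling, 0.204 among LDK libraries and 0.0531 to 0.163 without any 1 of 5 of the 6 libraries), Map4, its relative in most cells, differed by 0.04 (adjusted p = 0.577), and Map1b by 0.32 (adjusted p = 0.0681). Of 25 tubulin and tubulin-folding genes 4 rose, by 0.15 to 0.40, and Tubb3 fell by 0.12.

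Against the 6 other crRNAs, 5 of the 50 microtubule-associated proteins were higher and 4 lower, Mapt included, and against crRNA 4 the counts were 2 and 3. In these comparisons 16% and 7.46% of all tested genes passed in either direction. Map2 was higher than the mean of the 6 by 0.76, and 2 of the 6 crRNAs target it. Among kinases and phosphatases of tau, 11 of 39 rose (28.2%) and 8 fell (20.5%), shares not far from those of all genes, a balance that turned to 8 and 10 under rescaling. Ppp2ca, the catalytic subunit of the main tau phosphatase PP2A, was at 231, 240 and 231 FPKM with crRNA 6 and at 167, 175 and 169 FPKM with NT (0.46, adjusted p = 1.04e-10 in limma). All 3 crRNA 6 libraries were above NT, and the difference from the other crRNAs did not pass (0.04, adjusted p = 0.24). Gsk3b, a major tau kinase, rose by 0.29, while Cdk5 (0.12, adjusted p = 0.307) did not pass.

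Genes of the JNK and p38 cascade, which relays stress signals by phosphorylation, passed about as often as all genes. Of 25 tested members 6 rose (24%, against 22.2%) and 4 fell (16%, against 14.6%), with 4 and 5 under rescaling. The falls were Mapkapk2 (−0.43) and Mapkapk5 (−0.41), kinases activated by p38, the p38 activator Map2k3 (−0.39) and Mapk11 (−0.24), a p38 kinase. The rises were by 0.09 to 0.33, with Map2k4, an activator of JNK, highest, and the JNK genes Mapk9 and Mapk10 at 0.29 each, but Mapk10 did not pass under rescaling (adjusted p = 0.0685) or without NT replicate 1 (adjusted p = 0.161), among others.

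Immediate early genes, which are induced within minutes of a stimulus, went both ways. Of 44 tested members of 52 listed, 15 rose (34.1%, against 22.2% of all genes) and 8 fell (18.2%, against 14.6%), with 14 and 12 under rescaling and a median of 0.02 (−0.02 under rescaling). Fosb was at 4.57, 4.48 and 3.78 FPKM with crRNA 6 and at 8.63, 8.97 and 8.39 FPKM with NT (−0.94, adjusted p = 4.15e-09 in limma). Atf3, a stress-induced factor, was at 20.02, 19.50 and 21.05 FPKM with crRNA 6 and at 36.24, 32.19 and 33.95 FPKM with NT (−0.74, adjusted p = 1.76e-09). Fosb and Atf3 were below NT in each library, and Csrnp1 (−0.75) and Ppp1r15a (−0.58) fell as well. Ccn1, a matricellular protein, rose the most (0.76, adjusted p = 0.00034), followed by Gadd45a (0.62) and Nr4a3 (0.48), and Jun, Myc and Egr1 rose by 0.27, 0.25 and 0.18. With all 6 NT libraries Nr4a3 (0.29, adjusted p = 0.0566) and Myc (0.05, adjusted p = 0.682) did not pass. Fos (−0.15, adjusted p = 0.112) and Dusp1 of the JNK and p38 list (−0.02, adjusted p = 0.808) did not pass. Against crRNA 4, 8 immediate early genes were higher and 1 lower, where 4.48% of all genes were higher and 2.98% lower. Among the higher were Id2 (0.41), Egr2 (0.39) and Gadd45g (0.39). Compared with the mean of the 6 other crRNAs the list went both ways, with 8 higher and 5 lower (background 10.1% and 5.83%).

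Genes of protein synthesis, protein breakdown and energy metabolism leaned lower. Of 37 proteasome subunits 0 rose and 18 fell in limma (0 and 27 at an unadjusted p under 0.05, median −0.16), of 53 translation factors 3 rose and 23 fell (−0.10), of 61 ribosome biogenesis genes 5 rose and 25 fell (−0.15), of 79 mitochondrial ribosomal proteins 6 rose and 27 fell (−0.12), and of 81 nuclear-encoded respiratory chain genes 6 rose and 21 fell (−0.08). Over all genes 14.6% fell. At an unadjusted p under 0.05 in limma 5332 of 11553 genes passed in either direction, and 1965 of 9771 protein-coding genes with 4 or more exons were lower. Under rescaling the falls in these lists were 28, 33, 35, 36 and 30, where 2240 of 11553 genes fell, up from 1687 before it. The changes were small: the largest in the proteasome was Psmc4, an ATPase of the regulatory particle (−0.39), and among translation factors Eif2b2, a subunit of a guanine nucleotide exchange factor (−0.45). Cytosolic ribosomal proteins were split, with 22 rises and 18 falls among 83 (14 and 19 under rescaling), led by Rps29 at 24.6, 26.9 and 28.2 FPKM with crRNA 6 against 12.3, 12.6 and 15.8 FPKM with NT (0.95, adjusted p = 9.66e-07 in limma) and by Rps28 (0.80).

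Ribosome biogenesis genes that passed were mostly lower than NT but higher than the other crRNAs, with 31 of 61 not passing against NT. Imp4, a factor of small-subunit processing, was at 38.9, 36.7 and 37.2 FPKM with crRNA 6 and at 53.2, 53.7 and 52.1 FPKM with NT (−0.49, adjusted p = 1.07e-06 in limma), while it was higher than the mean of the 6 other crRNAs by 0.36 (adjusted p = 1.5e-05). Ubtf, a transcription factor of rRNA genes, differed by −0.45 from NT and by 0.22 from the others. Over the list, 23 of 61 genes were higher and 1, Surf6, lower than the other crRNAs, where 10.1% of all genes were higher. Against crRNA 4, 16 were higher and 0 lower, where 4.48% of all genes were higher. At an unadjusted p under 0.05 the counts against crRNA 4 were 26 and 1. At that cutoff 1090 of 9771 protein-coding genes with 4 or more exons were higher and 1044 lower than crRNA 4.

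ATF4 targets, which serve amino acid stress, and cholesterol synthesis genes that passed against the other crRNAs were mostly lower with crRNA 6. Among 37 ATF4 targets 8 rose (21.6%) and 13 fell (35.1%) against NT, where 22.2% of all genes rose and 14.6% fell. The direction was the same against the other crRNAs, with 2 higher and 13 lower, where 5.83% of all genes were lower. Ddit3, which encodes the stress factor CHOP, was at 349, 351 and 333 FPKM with crRNA 6 and at 534, 490 and 520 FPKM with NT (−0.58, adjusted p = 7.62e-09 in limma), and its difference from the other crRNAs was −0.47 (adjusted p = 1.8e-08). Ddit3 was thus low in all 3 crRNA 6 libraries, and the other group means were 330 to 632 FPKM. Of 28 cholesterol synthesis genes 6 rose and 5 fell against NT (6 and 6 under rescaling). Against the mean of the other crRNAs 1 was higher and 15 lower (10.1% and 5.83% of all genes). Against crRNA 4 the counts were 0 and 10 (4.48% and 2.98% of all genes), and 1 and 15 at an unadjusted p under 0.05. At that cutoff 1044 of 9771 protein-coding genes with 4 or more exons were lower than crRNA 4. Msmo1 of this pathway averaged 39.7 FPKM with crRNA 6. That lay inside the other group means, from 33.1 FPKM with Map2 crRNA 3 to 83.7 FPKM with Map2 crRNA 1.

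Genes of neuronal and sympathoadrenal identity leaned higher. Of 16 tested sympathoadrenal genes of 22 listed, 12 rose (75%, against 22.2% of all genes) and 2, Ddc (−0.59) and Gata2 (−0.23), fell, with a median of 0.28, and the counts were 9 and 4 under rescaling. Insm1, a zinc finger factor of neuroendocrine cells, was at 21.82, 17.96 and 18.05 FPKM with crRNA 6 and at 11.28, 10.05 and 11.61 FPKM with NT (0.78, adjusted p = 3.55e-09 in limma), and Mycn rose by 0.49. Among 37 genes of the neuronal cytoskeleton and synapse 18 rose (48.6%) and 5 fell (13.5%), Mapt included (11 and 7 under rescaling), with the complexin Cplx2 and the synapsin Syn2 each 0.51 higher. Heat shock proteins had 7 rises (38.9%) and 1 fall of 18, all under 0.30 in size, and 2 rises and 3 falls under rescaling. Of 20 p53 targets 4 rose (20%) and 8 fell (40%, against 14.6% of all genes), among them Bax (−0.48). Of 58 RNA decay factors 8 rose (13.8%) and 9 fell (15.5%, near the share of all genes), and the nonsense-mediated decay factor Smg6 fell the most, at 9.61, 10.1 and 9.49 FPKM with crRNA 6 against 16.6, 16.3 and 16.8 FPKM with NT (−0.74, adjusted p = 7.74e-11).

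**Figure D3:**
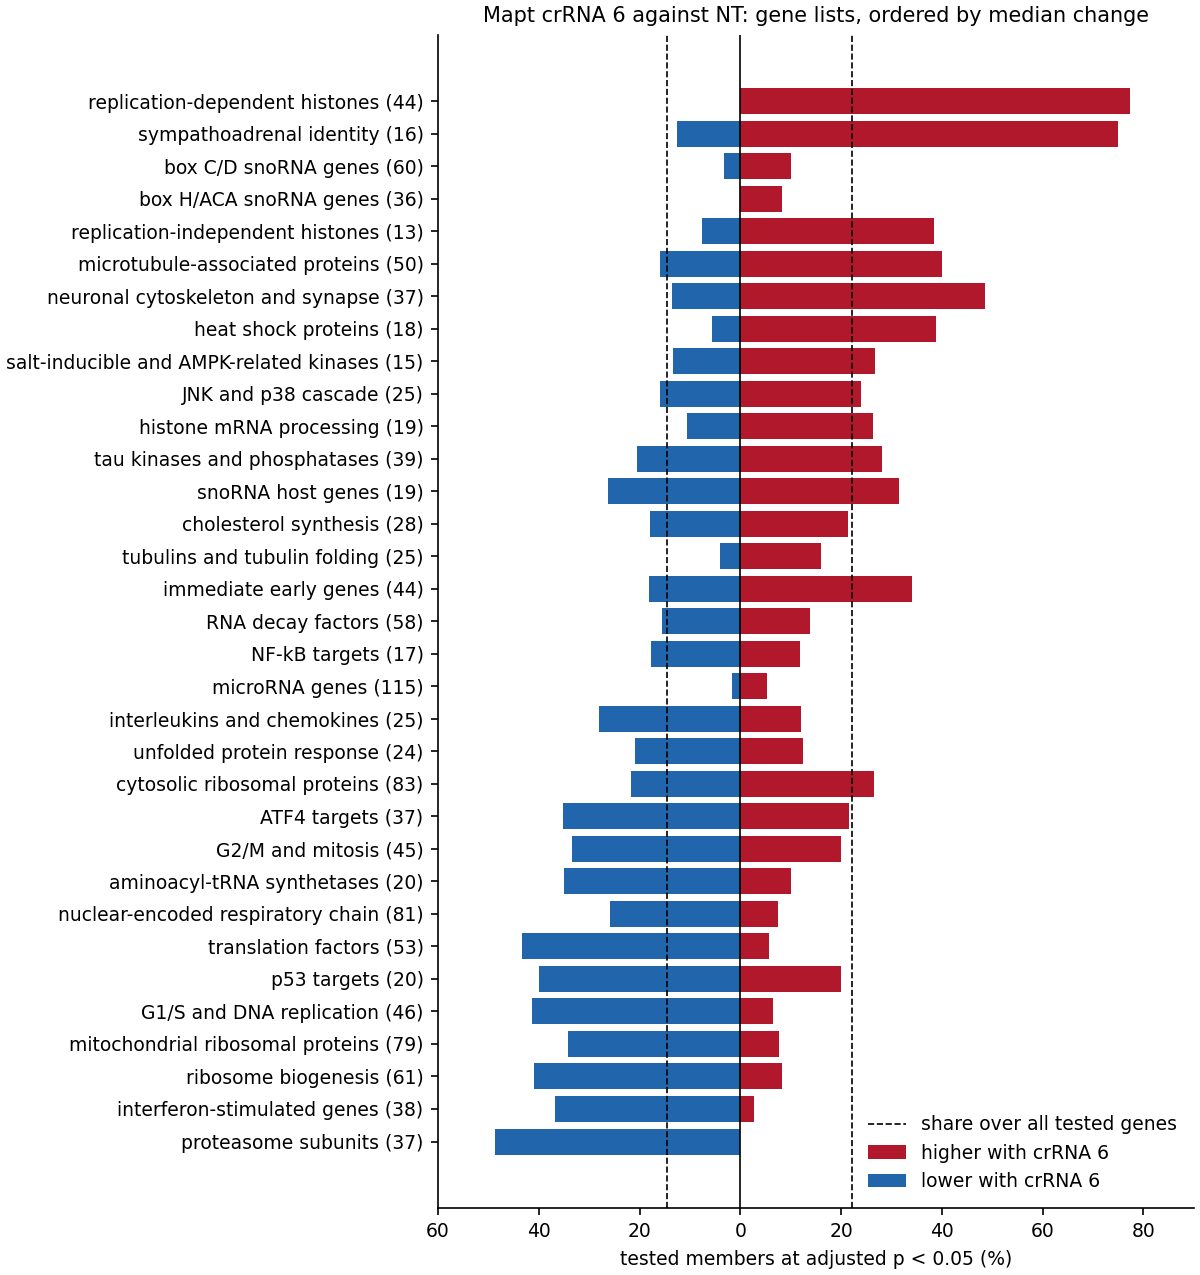
Share of tested members (in %) of each gene list that was higher (right) or lower (left) with crRNA 6 than with NT at adjusted p under 0.05, ordered by median change, with the number tested in brackets and dashed lines at 22.2% and 14.6%, the shares over all genes. Replication-dependent histones lie at the top, with 34 of 44 members higher, and proteasome subunits at the bottom, with 18 of 37 lower.

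Genes with few exons rose more often, a grouping that was chosen after the values were seen. Of 162 tested protein-coding genes with a single exon in every transcript, outside the replication-dependent histones, 114 (70.4%) rose and 4 fell, with a median log2 fold change of 0.45. Of 917 genes with 2 or 3 exons 35.7% rose (median 0.17), and of 9771 genes with 4 or more 20.6% rose and 16.2% fell (median 0.03, and −0.01 under rescaling). The single-exon genes included Tmem158, F8a, Eid2 and Insm1, and all 3 crRNA 6 libraries were above all 3 NT libraries for 122 of the 162, against 29.3% of all genes. Their median was 0.45 among LDK libraries and 0.44 in the LDL pair. The order held within classes of transcript length: under 2 kb the shares that rose were 59.7%, 26.2% and 9.89%, from 2 to 4 kb 79.4%, 39% and 17.5%, and from 4 kb 77.8%, 48.1% and 28.6%. Against the 6 other crRNAs the medians of the 3 exon classes were 0.19, 0.09 and 0.01. The 1132 olfactory receptor genes, which serve sensory neurons of the nose, summed to 10.8, 9.97 and 10.8 FPKM with crRNA 6 and to 8.51, 9.99 and 12.1 FPKM with NT, so their sums overlapped. Length itself moved with the change, with medians of −0.0027, −0.01, 0.03, 0.07 and 0.14 over 5 bins of tested genes by the length of their longest transcript, short to long.

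**Figure D4:**
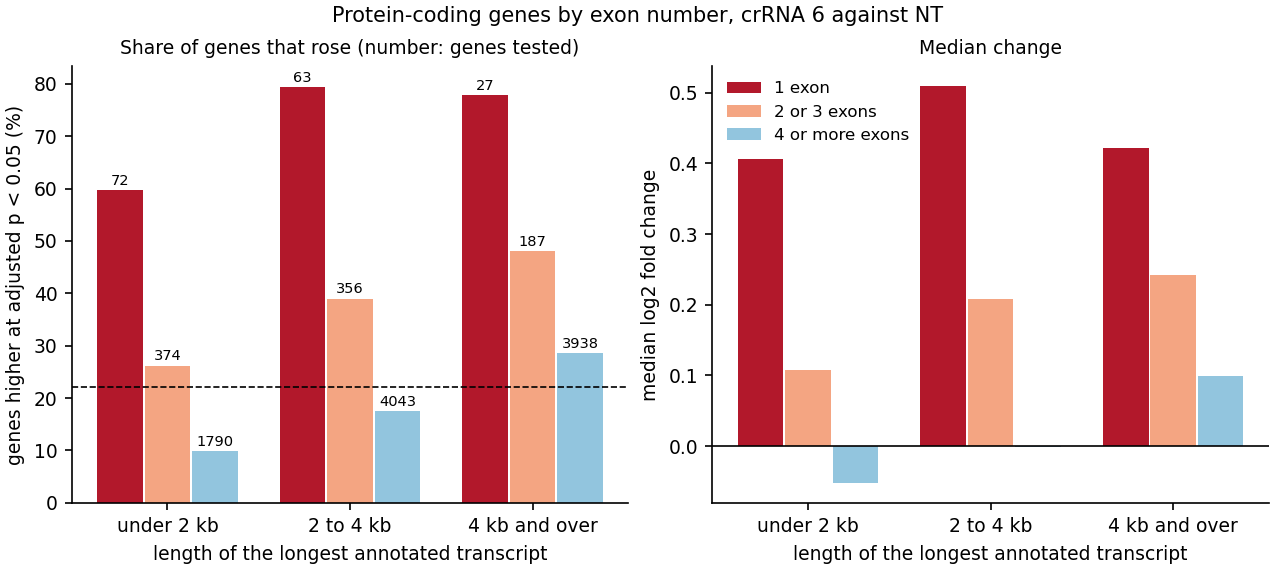
Protein-coding genes by number of exons and length of the longest transcript, with the share that rose against NT in % (left, number of genes tested above each bar, dashed line at 22.2% of all genes) and the median log2 fold change (right). In every length class the single-exon genes are highest, with 59.7% to 79.4% that rose.

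Genes with partial matches to the crRNA 6 spacer did not fall as a group. In GRCm38 transcripts, 200 genes besides Mapt held a site with up to 5 mismatches to the 22-base target, and 96 of them were tested. Of these 23 rose and 6 fell (6.25%, against 14.6% of all genes), with a median of 0.07. Long transcripts hold more possible sites, and they also fell less often. In the longest of 5 length bins 4.96% of genes fell, against 16.9% in the shortest. The matched genes were not compared with genes of like length, so the part of length in these shares and those below was not tested. The closest tested site had 3 mismatches and lay in the 3′ UTR of Dusp11, an RNA phosphatase, and is shown with the mismatched bases in capitals.
Dusp11 site: gTacctctgGcCtttcttttat
The site is at chr6:85943566-85943587 on the minus strand. Dusp11 was at 23.2, 23.8 and 24.4 FPKM with crRNA 6 and at 23.2, 23.8 and 21.8 FPKM with NT (log2 fold change 0.05, adjusted p = 0.457 in limma), so the groups overlapped. Tested genes with 4 mismatches numbered 14, of which 6 rose and 1 fell, against 22.2% and 14.6% of all genes. Only the first 9 of them by gene name are named here, and that cut leaves out the gene that fell. Among these 9, 5 rose, including Aqp11 (0.56), Bola1 (0.49), Crtc3 (0.29) and Isoc1 (0.19), and 0 fell. Each of these 4 calls was lost under at least 5 alternatives, and Isoc1 was −0.042 with all 6 NT libraries. Bub3 was the lowest of the 9 at −0.11 (adjusted p = 0.0509 in limma). By the fewest mismatches of any site, the share of genes that fell was 6.67% at 1 to 4 (15 genes), 6.17% at 5, 12.7% at 6, 13.7% at 7 and 15.2% at 8 or more. By the longest run of matched bases it was 15.2% at up to 9 bases, 13.3% at 10, 12.2% at 11, 10.4% at 12 and 15.3% at 13 to 21 (59 genes).

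Few genes differed from the other crRNAs by 2-fold. Against the mean of the 6 others, 1843 genes (16%) passed at any fold and 3 (0.026%) at 2-fold: Mapt and Mir6945 were lower (0.0173%) and Mir1949 higher (0.00866%). Mir6945 rested on 0, 0 and 1 fragments with crRNA 6. Against crRNA 4, 862 genes (7.46%) passed at any fold and 16 (0.138%) at 2-fold, 14 higher (0.121%) and 2 lower (0.0173%). Of these 16, 9 were replication-dependent histone genes, all higher, and the 2 that were lower were Mapt and Rnu73b (−1.18), a small RNA gene. The count was 10 without crRNA 6 replicate 1, 10 without crRNA 4 replicate 1, and 8 among genes of a mean FPKM of at least 5. For the 60 genes that rose at least 2-fold against NT, the median difference from the other crRNAs was 0.52 and that from crRNA 4 was 0.65, and for the 39 that fell 0.11 and 0.05, but these genes were chosen in the same crRNA 6 libraries and no test was made of the medians.

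A search made after the values were seen asked which genes set crRNA 6 apart from each other library of the WT set. All 3 crRNA 6 libraries were above all 21 others for 45 genes (0.39%) and below them for 21 (0.182%), and 17 of these also passed against NT, crRNA 4 and the other crRNAs, 9 above and 8 below. The 3 comparisons share the crRNA 6 libraries. The largest fall after Mapt was that of Mrpl37, a protein of the large mitochondrial ribosomal subunit. It was at 24.96, 27.18 and 23.43 FPKM with crRNA 6 and at 38.53, 36.79 and 38.73 FPKM with NT, and no library of another crRNA was under 33.3 FPKM. The log2 differences were −0.59 from NT (adjusted p = 2.07e-08 in limma), −0.51 from crRNA 4 (adjusted p = 3.5e-06) and −0.49 from the 6 others (adjusted p = 3.2e-08). Its nearest match to the target of crRNA 6, with mismatched bases in capitals, lies in a non-coding transcript.
Mrpl37 site: ggaGctctgTcttCtGCCttaC
This site, at chr4:107057684-107057705 on the minus strand, had 7 mismatches, and 29.1% of tested genes with a transcript sequence had 7 or fewer. Its longest matched run in any site was 11 bases, which 7.13% of genes reached.

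Other genes of this search moved less. Eif3f, a subunit of an initiation factor, was at 203, 202 and 203 FPKM with crRNA 6 and at 268, 248 and 261 FPKM with NT (−0.35), and no other library of the set was under 213 FPKM. Babam2 (−0.26), Rsrp1 (−0.23), Stk39 (−0.22), Prpf38b (−0.17) and Tial1 (−0.13) were also lower. Above all others stood Zdbf2 at 12.3, 11.2 and 11.4 FPKM with crRNA 6 and 6.66, 7.92 and 6.46 FPKM with NT (0.70), Mblac2 (0.67), Usf3 (0.51), Casz1 (0.40), Hk2, a hexokinase (0.38), Nacad (0.33), Enc1 (0.32), Slc39a10, a zinc transporter (0.27), and Kif18b, a mitotic kinesin (0.18). Over all 27 other WT libraries, with the N set (3 NT and 3 Rbfox3 crRNA 5 libraries) added, 5 of the 17 remained outside: Mapt, Mrpl37, Eif3f, Prpf38b and Enc1.

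**Figure D5:**
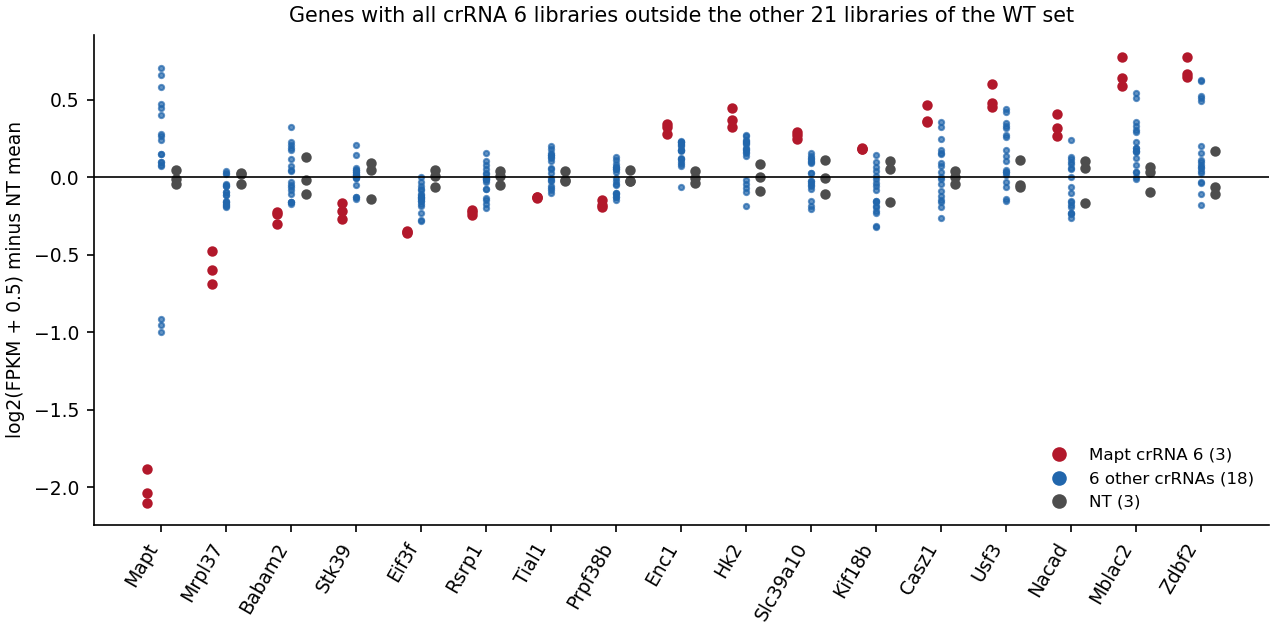
Log2(FPKM + 0.5) minus the NT mean in each library of the WT set for the 17 genes whose crRNA 6 libraries lay outside all 21 others, with crRNA 6 in red, 6 other crRNAs in blue and NT in grey. Mapt is near −2.0 with crRNA 6, with the crRNA 4 libraries near −1.0, and Mrpl37 is the lowest of the other genes.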

How the data were processed

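N2a cells were transfected with plasmids for RfxCas13d and a crRNA, and RNA was extracted with Trizol after 48 h. The mRNA libraries (VAHTS kit) were read from both ends on an Illumina NovaSeq, as the study's methods state. The authors checked and trimmed reads (FastQC, Trim Galore), aligned with Subread to mm10, took gene counts with featureCounts and deposited FPKM values. The authors tested genes with DESeq2, which needs counts and was not run here. For tool versions, annotation and strand setting, the entry is not given in the sources used here, so overlapping and antisense genes could not be told apart.

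The WT table held 25239 genes. Of these, 24366 matched the reference annotation by symbol and 340 by synonym. Testing was limited to the 11553 genes whose FPKM averaged 1 or more over 30 libraries. A linear model with 1 coefficient for each of 10 groups and the library series was fitted to log2(FPKM + 0.5) in limma 3.58.1 (R 4.3.3), with variances moderated along a mean trend, 2-sided tests and Benjamini-Hochberg adjustment over all tested genes. A fold change on this scale understates the change of low genes. Rose, fell, higher and lower of a list member mean an adjusted p under 0.05. Depth was estimated from the FPKM steps of microRNA genes, and fragments of small RNA genes from the same steps and RefSeq lengths, within 0.02 fragments of whole numbers. Spacer sequences came from the study's supplementary list and were searched in transcripts of GRCm38 (mm10). The model was tested on simulated data.

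The 35 gene lists and the comparisons were chosen with earlier results of these data known. Genes named were Mapt, up to 15 rises and 15 falls at an adjusted p under 0.05, a fold of at least 2, no overlap with NT and a mean FPKM of at least 3 in the higher group, without small RNA, predicted and replication-dependent histone genes. Up to 6 histone genes and 4 small RNA genes each way, up to 4 per list and 3 neighbours on each side of Mapt were added. So were 10 genes with the fewest mismatches, taken by gene name where mismatches were equal. Members of the tau, JNK and p38, and immediate early lists were added at any value. Some genes that the rule names are not reported here. Where a count of members is small its genes are also named, which was done after their values were seen. Libraries 1 and 2 of crRNA 6 and NT did not deviate together with their own number, so no pairing was used beyond the series term. The LDL pair correlated at 0.166 without that term, which takes up what the LDL libraries share. Alternatives changed the pseudocount, the filter on low values, the series term, the libraries in the fit, the scaling, the NT libraries and a replicate block, or left out each replicate. List counts under rescaling and among LDK libraries and the exon medians were added after seeing the data.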

Additional observations from a re-analysis of the deposited data

Results flagged for a closer look

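The effect on Mapt differed between the 2 crRNAs against it, which share 17 bases: the tested difference, crRNA 6 minus crRNA 4, was −1.05 on the log2 scale (adjusted p = 4e-11 in limma), with all 3 crRNA 6 libraries below all 3 crRNA 4 libraries. By the same test 16 genes differed at least 2-fold between crRNA 6 and crRNA 4.

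Independently of the size of the difference, 9 genes, of which Gm24148 is also among the 16, passed against NT in opposite directions with crRNA 6 and crRNA 4, which share the NT libraries, and their difference was tested itself. Msmo1, an enzyme of cholesterol synthesis, was −0.27 with crRNA 6 and 0.22 with crRNA 4 (difference −0.49, adjusted p = 1.35e-05 in limma), and Fdft1, of the same pathway, was −0.18 and 0.13 (−0.31, adjusted p = 6.41e-05). Nop56, a core protein of box C/D snoRNPs, was 0.16 and −0.11 (0.27, adjusted p = 7.07e-06), and the chaperone Hsph1 was 0.11 and −0.13 (0.24, adjusted p = 3.91e-05). Fbxl20 (difference −0.50) and Fgfr1op (−0.37) were lower with crRNA 6, and Crtc3 (0.62), Rybp (0.42) and the predicted gene Gm24148 (1.71) were higher. Groups of 3 libraries were too small for an outlier rule within a group, and counts with 1 library left out are given below.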

How the results depend on the processing

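Mapt stayed between −1.93 and −2.07 on the log2 scale under every alternative, and leaving out 1 library gave −1.96 to −2.06. The 99 genes changed against NT were 70 to 147 under the alternatives in which all genes with a mean FPKM of 1 or more or of any value were tested, and 28 at a mean FPKM of at least 5, where fewer genes were tested. The count was 97 to 113 without 1 library, 146 with a pseudocount of 0.1, 70 with 1, and 147 with all 6 NT libraries, of which 86 were among the 99. Genes passing at any fold were 3384 to 4800, and 3384 to 3760 without 1 library. The 16 genes changed against crRNA 4 were 8 at a mean FPKM of at least 5 and 10 to 15 without 1 library (10 without crRNA 6 replicate 1, and 10 without crRNA 4 replicate 1). The 3 against the other crRNAs were 8 with a pseudocount of 0.1 and 2 to 4 without 1 library. With all 6 NT libraries 3 named genes changed sign: Camk2g was −0.0145, Isoc1 −0.042 and Maff 0.34, and the cause was not tested. Of 216 named genes that passed against NT, 152 passed in the same direction under every alternative that tested them, and 64 did not under at least 1. Medians of gene lists and exon classes changed sign in 13 of 38, mostly those near 0. With the series term fitted, the deviations of libraries 1 and 2 of crRNA 6 and NT correlated at −0.0204 and −0.0518 with their own number. Those of the LDL pair, which shares no number, correlated at −0.152. Without that term the values were 0.0207, 0.0556 and 0.166. A fit with a replicate block gave −2.01 for Mapt, 101 and 4327 genes against NT, 16 against crRNA 4 and 3 against the others. The block thus moved no count by over 1.5 times, and it ended no call of a named gene. Calls on microRNA and snoRNA genes are limited by depth, since 1 fragment was worth 0.415 to 1.45 FPKM in those named (crRNA 6 replicate 1).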
